A study of Mus musculus with 6 samples.

Results

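The genes studied here encode 8 core proteins of the myelin membrane: *Pmp22*, *Mbp*, *Pmp2*, *Mal*, *Pllp*, *Cnp*, *Mag* and *Ncmap*. They were taken by gene symbol from the 46603 genes of the deposited RNA-Seq table, and each symbol occurred on 1 row. The table rests on sciatic nerves of mice at postnatal day 9 (P9), with 3 control libraries (ctrl) from mice that carry conditional *Ep400* alleles without Cre and 3 *Ep400* cko libraries (*Ep400ΔPNS*) in which *Dhh::Cre* is combined with the same alleles. *Dhh::Cre* is active in cells of the Schwann cell (SC) lineage, so that the other cells of the nerve keep *Ep400*, which encodes a chromatin remodeler. The labels give a mixed 129SvJ/C57Bl/6J background for both groups, while the methods of the study name C3H in place of 129SvJ. The labels call the libraries of a group biological replicates.

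The deposited table holds 1 measurement per gene that could be used, the authors' mean over all 6 libraries of normalized read counts. Ctrl and cko libraries are pooled in this mean. A level given here therefore belongs to neither genotype alone, has no spread, and allows no test. The fold changes and p-values that the authors placed beside it were not used, and the effect of *Ep400* deletion on the members is not analysed here. *Ep400* itself had a mean count of 4490, and its loss in the cko libraries could not be checked from a pooled mean.

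Myelin is the membrane that a SC wraps around an axon in many layers. In compact myelin the layers are pressed together, with adhesion proteins between the outer membrane faces and with basic or lipid-binding proteins between the inner faces. In non-compact myelin, at the paranodes, the incisures and the innermost layer, cytoplasm remains between the membranes. Peripheral nerves at this age are in the phase of active myelination, and SCs then transcribe the genes for myelin proteins at very high rates.

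The members cover both domains. In compact myelin, *Pmp22* codes for a membrane protein that crosses the bilayer several times and whose gene dosage underlies inherited neuropathies of humans, *Mbp* for the basic protein that holds the cytoplasmic faces together, and *Pmp2* for a small fatty acid-binding protein that attaches to the same faces. *Mal* and *Pllp* (plasmolipin) code for MARVEL domain proteolipids of cholesterol-rich membrane that take part in sorting of myelin cargo. *Cnp* codes for a phosphodiesterase on the cytoplasmic side, *Mag* for a sialic acid-binding adhesion protein that faces the axon, and *Ncmap* for a small membrane protein of non-compact myelin.

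A read count is assigned to a gene as a whole, so it matters where the transcripts of a gene start and whether another gene lies over its exons. These points carry weight for *Pmp22* and *Pmp2*. *Pmp22* has several annotated starts, and its count pools the transcripts from all of them. RefSeq windows from 250 bases before to 50 bases after a start (GRCm38.p6, plus strand, 5′ to 3′) are shown for the pair of starts with the lowest coordinates, chr11:63128732-63129031 and chr11:63131207-63131506. Capitals mark matches to CCAAT or to the GC box GGGCGG on either strand.
Pmp22 window at chr11:63128732-63129031: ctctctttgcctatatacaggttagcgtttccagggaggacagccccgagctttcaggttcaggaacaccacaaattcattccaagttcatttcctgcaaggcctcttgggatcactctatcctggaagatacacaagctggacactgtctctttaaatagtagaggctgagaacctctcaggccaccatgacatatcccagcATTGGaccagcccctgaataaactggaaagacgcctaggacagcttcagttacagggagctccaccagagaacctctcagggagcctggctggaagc
Pmp22 window at chr11:63131207-63131506: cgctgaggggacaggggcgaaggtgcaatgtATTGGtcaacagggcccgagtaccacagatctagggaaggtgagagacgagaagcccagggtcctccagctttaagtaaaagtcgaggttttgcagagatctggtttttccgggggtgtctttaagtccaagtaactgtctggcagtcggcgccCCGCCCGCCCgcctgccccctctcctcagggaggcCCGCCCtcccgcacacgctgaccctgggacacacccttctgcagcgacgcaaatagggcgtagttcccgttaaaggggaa

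The windows differ in base composition. The first had a GC content of 50.7% and held 1 CCAAT match, and the second had 60.0% with 1 CCAAT and 3 GGGCGG matches. The other *Pmp22* windows had 66.3% and 72.3%. Over all 32851 RefSeq windows the median was 52.7% (quartiles 45.7% and 61.7%), so that the first *Pmp22* window lay near the middle and the last 2 above the upper quartile.

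*Pmp2* is the member whose exons are largely shared with another gene on the same strand. It has 1 annotated transcript with 4 exons on the minus strand of chromosome 3. *Gm37389*, annotated by GENCODE M21 as a protein-coding gene whose overlapping transcript is a target of nonsense-mediated decay, shares 1224 of the 1408 exon bases of *Pmp2* (86.9%). Only exon 1 lies fully outside it. The coding part of this exon, which belongs to *Pmp2* alone, runs from the start codon (capitals) to the end of the exon and lies at chr3:10183747-10183819 of GRCm38 (minus strand, 5′ to 3′).
Pmp2 exon 1, coding part: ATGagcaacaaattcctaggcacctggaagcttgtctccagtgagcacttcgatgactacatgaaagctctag

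The members were among the most abundant transcripts of the P9 nerve. Together they held 3.46% of the sum of all means, which came to 25608535. *Mbp* and *Pmp22* made up 86.7% of the members' part and the other 6 genes 13.3%.

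Long genes collect more reads than short ones at the same number of transcripts, so levels of different genes were compared as mean count per kb of exon. All exon bases of a gene were used for this, each base once. A mean of at least 10 was reached by 17012 genes, of which 16937 had an annotated length and were ranked. Their median was 90.8 per kb, with quartiles of 28.2 and 241. The highest 1% of genes began at 3720 per kb, and 7 of the 8 members lay above that value.

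*Pmp22* had the highest level of the members. Its mean count was 290264, which on 2354 exon bases gave 123307 per kb and rank 4 of all ranked genes. This is 1358 times the median gene. The gene lies on chromosome 11 from 63128982 to 63159547 (plus strand, ENSMUSG00000018217) and has 5 annotated transcripts.

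*Mbp* followed with rank 12. Its mean count of 477295 was larger than that of *Pmp22* and ranked 3 among all genes, but it is spread over 8469 exon bases and gave 56358 per kb. The level of *Pmp22* per kb of exon was thus 2.19 times that of *Mbp*. *Mbp* lies on chromosome 18 from 82475146 to 82585637 (plus strand, ENSMUSG00000041607). Its 16 annotated transcripts include long ones from an upstream start that code for other proteins than the myelin isoforms, and the exons of all of them enter its length.

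After these came a step of 4.23 times between *Mbp* and *Mal*. *Mal* (chromosome 2 from 127633226 to 127656695, minus strand, ENSMUSG00000027375) had a mean count of 37032 and 13330 per kb, rank 34. *Cnp* (chromosome 11 from 100574904 to 100591729, plus strand, ENSMUSG00000006782) had a mean count of 39902 and 10965 per kb, rank 42. The raft proteolipid and the phosphodiesterase were thus 1.22 times apart, and their order turned when the longest transcript was used as the length.

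The other 4 members formed the lower part of the order. *Pllp* (chromosome 8 from 94674894 to 94696278, minus strand, ENSMUSG00000031775) had a mean count of 12021 and 5771 per kb, rank 92. *Pmp2* (chromosome 3 from 10179851 to 10183929, minus strand, ENSMUSG00000052468) had a mean count of 7610 and 5405 per kb, rank 104. The value of rank 100 was 5523 per kb, so that *Pllp* lay just inside and *Pmp2* just outside the 100 highest genes. For *Pmp2* this rests on exon bases that are largely shared with *Gm37389*.

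*Ncmap* (chromosome 4 from 135369576 to 135398227, minus strand, ENSMUSG00000043924) had a mean count of 9793 and 4398 per kb, rank 140. *Mag* had the lowest level, with a mean count of 11829 and 2905 per kb, rank 235. It lies on chromosome 7 from 30899176 to 30914873 (minus strand, ENSMUSG00000036634), and it was the member below the highest 1% of genes, at 32.0 times the median gene. The steps between neighbours in the order from *Pllp* to *Mag* were 1.07, 1.23 and 1.51 times. Whether neighbours in the order differ beyond the spread of libraries could not be tested for any pair, because the table holds no values per library.

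**Figure D1:**
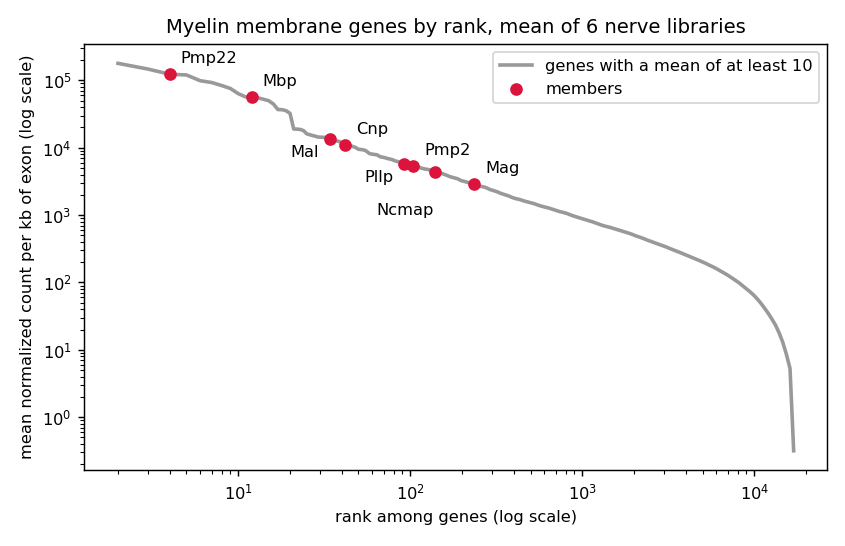
Mean normalized count per kb of exon (vertical axis, log scale) against rank (horizontal axis, log scale) for genes with a mean of at least 10 over the 6 libraries, ctrl and cko pooled. The grey line stands for the ranked genes from rank 2 on and the red points for the 8 members, which run from *Pmp22* at rank 4 to *Mag* at rank 235.

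Per kb of exon, the members thus spanned a range of 42.4 times from *Pmp22* to *Mag*. The range was 32.8 times per kb of the longest transcript and 101 times, from *Mbp* to *Mag*, per kb of coding sequence. Of the genes for compact myelin, *Pmp22* and *Mbp* held places 1 and 2 and *Pmp2* place 6, or place 3 on the exon bases that it does not share with *Gm37389*. *Cnp*, *Ncmap* and *Mag* lay in places 4, 7 and 8, or 5, 7 and 8 on those exon bases. *Mal* and *Pllp*, which were not assigned to a domain here, held places 3 and 5, or 4 and 6. For all 8 genes, the number of cells of a type and the RNA per cell cannot be told apart in RNA of a whole nerve.

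The length that a mean is divided by changed the order in part. With the longest transcript in place of all exon bases, *Mbp* rose to 99499 per kb and *Mag* to 4860, since much of their exon sequence lies outside their longest transcript. *Pmp22* stayed first with 159311 and *Mag* last. *Ncmap* and *Mag* were then only 1.01 times apart. *Cnp* at 13740 passed *Mal* at 13330.

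Per kb of coding sequence, which leaves out the untranslated parts, *Mbp* came first at 636394 and *Pmp22* second at 604717, a ratio of *Pmp22* to *Mbp* of 0.950. *Ncmap*, whose coding sequence of 354 bases is the shortest of the members, moved up to the fifth place with 27665. *Mag* codes for the longest protein, with 1881 coding bases, and remained last with 6289. The order of *Pmp22* and *Mbp* therefore depends on the length chosen, while *Mag* was last under every measure per kb.

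*Pmp2* was the member with the most uncertain level. *Gm37389*, which covers exon 2, exon 3 and all but 1 base of exon 4 of *Pmp2*, was itself listed at 0. Where 2 genes on 1 strand share exons, a counting program may leave out the shared reads as ambiguous, and the sources used here do not state how HTSeq was set for this. If only the 184 exon bases outside *Gm37389* had been counted, the level of *Pmp2* would be 41360 per kb in place of 5405, and it would follow *Mbp* directly. Whether reads of *Pmp2* were left out in this way was not tested.

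The other overlaps lay on the opposite strand. *Dnajc7* shares 154 bases (4.23%) of the exons of *Cnp*, and its mean count was 3239. *Gm45767*, an annotated antisense gene not used here, covers 1128 exon bases (54.2%) of *Pllp*. The kit was stranded, but the sources used here do not state whether strand entered the count. Without it, reads within the shared bases of *Cnp* and *Pllp* cannot be told from those of these partners. In a search of member transcripts against all other transcripts, matches of at least 100 bases at 95% identity were found with these 3 overlapping genes and with no others.

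**Figure D2:**
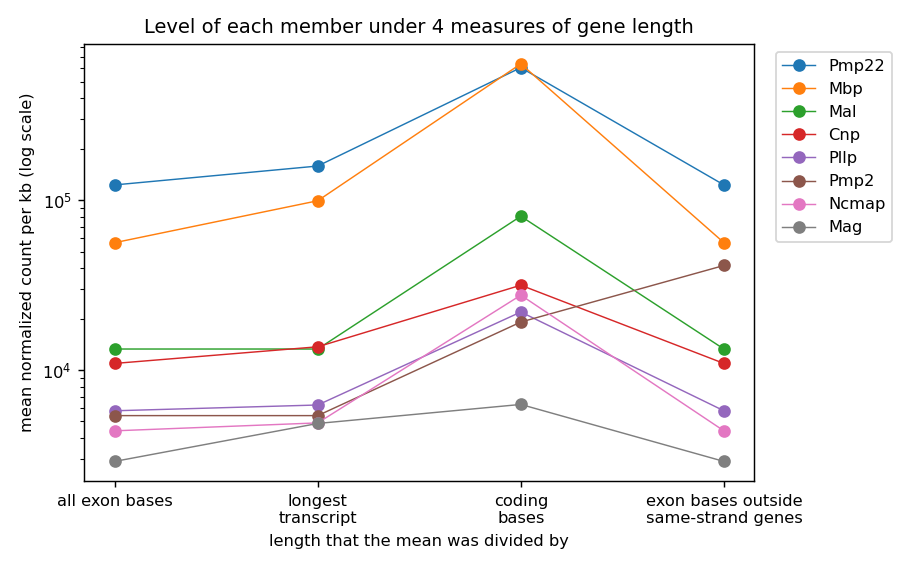
Level of each member (vertical axis, mean normalized count per kb, log scale) when the mean over the 6 libraries is divided by all exon bases, the longest transcript, the coding bases or the exon bases outside genes on the same strand (horizontal axis). *Pmp22* and *Mbp* change places with coding bases, and *Pmp2* moves from 5405 to 41360 when bases shared with *Gm37389* are left out.

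*Pmp22*, *Pmp2*, *Mal*, *Pllp* and *Mag* were next set beside relatives of their protein families. The aim was to see whether the level belonged to the family or to the member. No family list was made for *Mbp*, *Cnp* and *Ncmap*. *Pmp22* belongs to a family with the epithelial membrane proteins. *Emp3* had 1779 per kb of exon, *Emp1* 921 and *Emp2* 376. The level of *Pmp22* was 69.3, 134 and 328 times these values, respectively. *Pmp22* is also known as a growth arrest gene of fibroblasts. The 5 fibroblast markers ranged from 677 to 99007 per kb in the same nerves. The part of fibroblasts in the *Pmp22* level was not tested.

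*Pmp2* was the highest of the fatty acid-binding protein genes. *Fabp4*, a gene of adipocytes and capillary endothelium, followed with 771 per kb, and *Pmp2* was 7.01 times higher. *Fabp3*, known from heart and muscle, had 87.9 per kb and *Fabp5*, known from skin, 85.7. Of the 9 relatives, 4 had a mean count of at least 10, and *Fabp2*, *Fabp6* and *Fabp9* were listed at 0. At the same floor, 16937 of all 46603 genes were ranked. *Fabp7*, which marks SC precursors, had 14.6 per kb, and *Pmp2* was 371 times higher. These ratios use all exon bases of *Pmp2*. They would be larger if only its 184 bases outside *Gm37389* had been counted, at 41360 per kb.

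*Mal* and *Pllp* share the MARVEL domain with 14 other genes of the list. The highest of these were *Cmtm5*, itself listed with the myelin genes, at 1557 per kb, *Plp2* at 621 and *Cmtm3* at 567. *Mal* was 8.56 times and *Pllp* 3.71 times above *Cmtm5*. *Mal2* and *Mall*, the closest relatives of *Mal* by name and both known from epithelia, had 2.44 and 51.8 per kb. Here 12 of the 14 relatives had a mean of at least 10, while 16937 of all 46603 genes were ranked at this floor.

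*Mag* is a member of the Siglec family of sialic acid-binding lectins, whose other genes are mostly known from leukocytes. All 7 relatives had a mean of at least 10, the floor at which 16937 of all 46603 genes were ranked. The highest were *Cd33* with 32.0 per kb, *Siglece* with 28.5 and *Siglecf* with 24.2, and *Mag* was 90.7, 102 and 120 times higher. No relative in the 4 families lay above the level of *Mag*, the lowest member. Of all ranked genes, 98.6% lay below *Mag*.

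**Figure D3:**
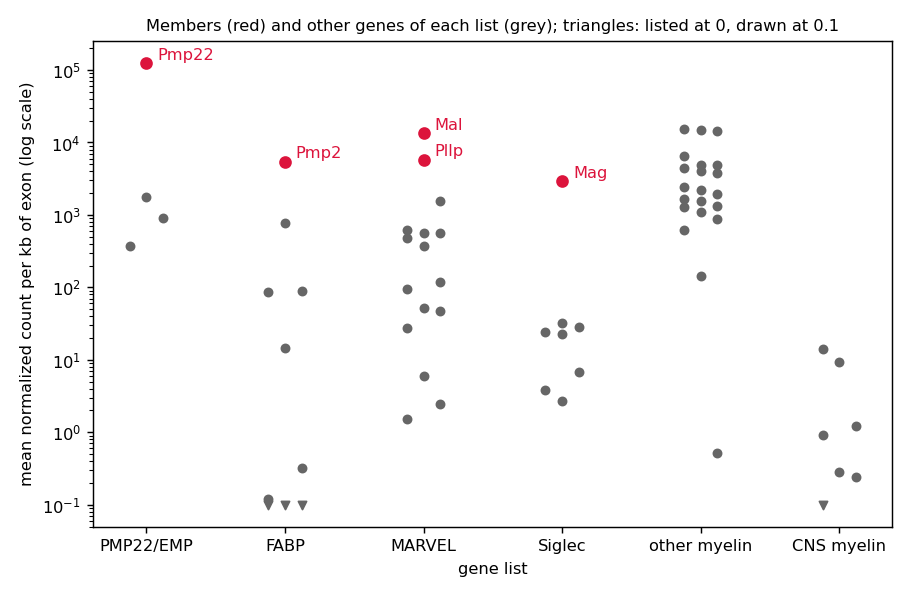
Mean normalized count per kb of exon (vertical axis, log scale, 6 libraries pooled) of the members with family relatives (red) and of the other genes in each list (grey), by list (horizontal axis). Genes listed at 0 are drawn as triangles at 0.1, and the red points lie above all other points of the same family.

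Of 21 other myelin genes, 9 lay above *Mag* per kb of exon, and 20 had a mean of at least 10. Over all 46603 genes, 16937 were ranked at this floor. *Prx* with 15196 per kb, coding for a scaffold protein that links SCs to the basal lamina, *Cd9* with 14873, coding for a tetraspanin, and *Cadm4* with 14229, coding for a cell adhesion molecule of the internode, were the highest of them and lay just above *Mal*. The median of the 21 genes was 2185 per kb, below every member.

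*Cntn2* was the exception at the lower end, with a mean count of 4.86. It encodes a contact protein of the juxtaparanode. Several members are as well known from oligodendrocytes as from SCs, above all *Mbp*, *Mag*, *Cnp* and *Mal*. Genes of central myelin were therefore read beside them. *Mobp* had a mean count of 97.8, *Myrf* 81.1 and *Opalin* 3.61. *Mog* had 0.416, and *Olig2*, which defines the oligodendrocyte lineage, was listed at 0. The 7 listed genes together made up 0.000726% of the means, against 3.46% for the members. They leave out genes such as *Mbp* that both kinds of myelin use, so their sum does not measure all RNA of central myelin.

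Marker genes of SCs had a median of 3752 per kb of exon for 5 genes and a range of 1302 to 4813. Those of fibroblasts had a higher median of 18890 (677 to 99007). The median was 2121 for skeletal muscle (250 to 4519), 415 for macrophages (108 to 1346) and 336 for endothelium (165 to 1309). The labelled tissue is a whole nerve, and markers of all these cell types were detected in it. The source of the muscle transcripts and the part of other cells in the levels of the members were not tested.

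The genes beside the members had lower levels than the members, as had nearly all ranked genes. For each member, the nearest protein-coding gene on either side that does not overlap it was taken, which gave 16 neighbours. The overlapping protein-coding genes were left out here. Of these, *Dnajc7* had 666 per kb of exon, at a ratio of *Cnp* to it of 16.5, and *Gm37389* beside *Pmp2* was listed at 0. Their median was 19.4 per kb of exon and their range 0 to 787, and 4 had a mean count below 10. None of the 16 lay above *Mag*, but 98.6% of all ranked genes lay below *Mag* too. The smallest ratio was that of *Ncmap* to *Srrm1*, a widely used splicing gene with 787 per kb, at 5.59.

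*Pllp* and *Arl2bp* lie only 469 bases apart on opposite strands. *Arl2bp* had 662 per kb, and *Pllp* was 8.72 times higher. *Pmp22* lies between *Tekt3*, a gene of sperm flagella, with 1.66 per kb and *Hs3st3b1* with 9.19. *Mbp* lies between *Galr1*, a neuropeptide receptor gene with a mean count of 0.537, and *Zfp236* with 191 per kb, and was 294 times above the latter.

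In some cases the neighbour is a family relative. *Mag* lies 18834 bases from *Cd22*, a Siglec gene of B cells, which had 6.69 per kb, so that *Mag* was 434 times higher. *Mall* lies 47691 bases from *Mal* on the same strand and had 51.8 per kb, at a ratio of 257. *Pmp2* neighbours *Fabp9*, a testis gene listed at 0. In each of these pairs of nearest neighbours, the family members thus had levels far apart in the P9 nerve. Relatives further along the chromosome were not looked at in this way.

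**Figure D4:**
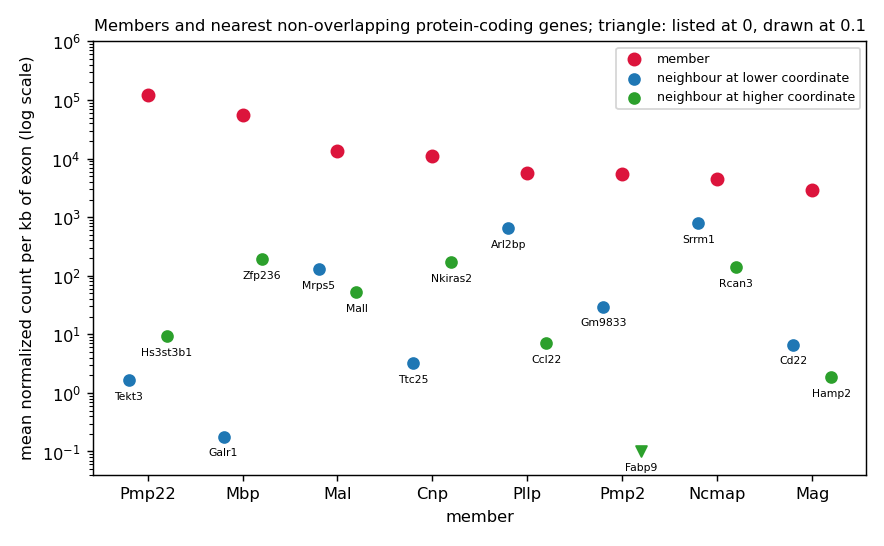
Mean normalized count per kb of exon (vertical axis, log scale, 6 libraries pooled) of each member (red) and of the nearest protein-coding gene that does not overlap it at lower (blue) and higher (green) coordinates, by member (horizontal axis). *Fabp9*, listed at 0, is drawn as a triangle at 0.1, and all neighbours lie between 0 and 787, below the lowest member at 2905.

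RefSeq promoter windows were found for 6 members, 12 windows in all, and those of *Mag* and of *Pmp22* overlap in part. The TATA motif TATAAA was in none of the 12 windows and in 13.6% of all windows. ACAAAG, a core sequence of Sox proteins, was in 3 windows (*Cnp* and 2 of *Mag*) and in 18.7% of all. GNGTGGGNG, a sequence of Egr proteins, was in 1 window (*Cnp*) and in 14.3% of all. Both strands were searched for every motif. A match to GNGTGGGNG can share bases with one to GGGCGG, the GC box.

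The GC box was in 5 windows of 4 members (*Pmp22*, *Pllp*, *Ncmap* and *Cnp*) and in 35.7% of all windows. CCAAT was in 5 windows of 3 members (*Pmp22*, *Ncmap* and *Mag*) and in 37.4% of all. The single *Mal* window held none of the 5 motifs. No motif was thus common to the 6 members with a window, and a match describes letters in a window only. *Cnp* was the member that held ACAAAG, GNGTGGGNG and GGGCGG together in its 1 window.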

How the data were processed

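Total RNA of P9 sciatic nerves was used by the authors for stranded mRNA libraries. Alignment to mm10 used STAR (version 2.5.1 according to the submitters' processing notes), and unique mappings to Ensembl genes were counted with HTSeq. The file header names another Ensembl release than the methods. The deposited table holds 1 signal per gene, the mean of the 6 libraries' counts, which the authors had scaled by DESeq2 size factors. Its header calls the mean raw, but the values are neither whole numbers nor sixths of them. The other 6 value columns hold the authors' own comparison of cko over ctrl (fold changes, standard error, Wald statistic and p-values) and were not used. Totals per library are not in the columns used, so depth is known only from the sum of means, and no error or interval could be given.

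Means were divided by exon bases of GENCODE M21, to which 46091 of 46603 gene IDs were matched, and genes with a mean of at least 10 were ranked. This is another annotation than the one used for counting. Its exon models may differ from those that were counted. Promoter windows are from RefSeq. Member transcripts were compared with BLAST 2.17.0. Python 3.11.15 with numpy 2.4.6, pandas 2.3.3 and matplotlib 3.10.9 was used, and length and rank steps were tested on simulated data. Named are all members, *Ep400*, the 3 highest genes of each list and those listed at 0, along with neighbours and overlapping genes. Chosen after seeing their values were *Fabp7*, *Mal2*, *Mall*, *Cntn2* and *Mog*. Some results are not reported here. *Lim2* occurs on 3 rows and was left out. Likeness of pattern to other genes could not be measured with 1 mean per gene. Members and lists were chosen with earlier results of these data known. Alternatives were other lengths, no filter and other sums.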

Additional observations from a re-analysis of the deposited data

How the results depend on the processing

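Of the 8 places in the order of levels, 6 were kept with the longest transcript as the length, 3 with the longest coding sequence, 2 with the mean count and no length, and 4 with exon bases outside genes on the same strand. The last length and the use of annotated coding sequences for the level of each member were chosen after seeing the data, and the coding length of a protein table was not run. Of the changes, the 41360 per kb of *Pmp2* rests by construction on its 184 unshared bases. The share of the summed means held by the members was 3.58% of protein-coding genes, and 0.552% without the 10 genes of the highest mean, which include *Mbp* and *Pmp22*. Among the 100 highest genes were 5 members, also without a filter on the mean, 4 with the longest transcript or no length and 6 among protein-coding genes. No paired analysis was possible because the table holds 1 mean over all libraries and no value per library, and for the same reason no library could be left out in turn. The pooled mean also limits every level to a description.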
